A study of Mus musculus with 2 samples.

Results

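The neuropeptide precursor genes described here are Nts, Npy, Sst, Penk, Tac1, Cck, Avp, Oxt, Trh and Crh. A probe set, the group of short probes that reads a transcript on an Affymetrix array, was taken when the platform annotation gave it exactly 1 gene symbol and that symbol was one of these names. All 10 genes were found, out of 17097 genes named on the arrays, with 11 probe sets in all because Tac1 has 2. The names were chosen by gene family, with the levels on both arrays and the differences between them already known, among them that of Nts. Those values are therefore given as a description.

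The study measured total RNA of C57BL/6 mouse embryonic stem (ES) cells on 2 arrays. ES cells derive from the inner cell mass and can form any tissue of the body, and these were grown without feeder cells on gelatin, in serum with ESGRO. The array labelled control KD came from cells infected with a lentivirus carrying scramble RNA, and the array labelled TET2 KD from cells infected with a lentivirus whose short hairpin RNA is directed at Tet2, an enzyme that oxidises methylated cytosine in DNA. In both groups the U6 promoter drove the hairpin and cells were kept in puromycin, which selects infected cells, for 72 hours. Whether 1 clone or several cultures were used was not given in the sources used here. With 1 array a group there is no replicate, so no difference has an error or a test, and precision is limited by the number of arrays.

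Neuropeptides are signalling peptides that neurons and endocrine cells cut from longer precursor proteins. The precursors enter dense-core granules, where proprotein convertases and carboxypeptidase E cut and trim them, and stimulation releases the peptides onto receptors that mostly couple to G proteins. In the adult these genes are known from hypothalamic, cortical and gut cells.

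Values are the authors' deposited log2 signals. Without the scanner files it could not be checked that they stand beside the right probe set names, so each holds for a gene only as far as that pairing is right. The floor used below is the median of all probe sets other than controls, 2.55, and a gene was read as above background when the mean of both arrays reached it. A difference is the log2 value on the array labelled TET2 KD less that on the array labelled control KD. A gene was called when this reached 2-fold, a log2 difference of 1.

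Facts of the whole series bear on how the precursors can be read. The 2 Tet2 probe sets differed by -0.26 and -0.06, so the targeted gene was not 2-fold lower on the array labelled TET2 KD. Directions are therefore given by array label and not as effects of Tet2 loss. Where these probe sets lie against the hairpin is not known here. Of 13 ES cell markers measured, 8 reached the floor on both arrays, while the core factors Pou5f1 and Nanog were under it on both. Of 11 neuronal markers 10 reached the floor on both arrays, and their summed linear signal was 3559 and 3627. Of 6 GABA neuron markers 2 did, Gad1 and Gad2, with sums of 135 and 151. Gad1 differed by 0.18 in its brighter probe set, used in the sums, and by -0.62 in its other one. All 6 oligodendrocyte markers measured and 6 of 7 astrocyte markers reached the floor on both arrays too. Their sums were 1767 and 1662 for oligodendrocytes, and 1422 and 1407 for astrocytes. The oligodendrocyte gene Opalin ran against the oligodendrocyte sum, at 4.88 and 6.01, while its other probe set, under the floor, differed by -0.33. Of 7 enteroendocrine markers, 3 reached the floor on both arrays, with sums of 193 and 170, and Gcg and Gip were under it on both. The sums were carried by Neurod1, at 7.31 and 7.08, whose 2 probe sets differed by -0.23 and 0.36. Of 7 pituitary markers, 3 reached the floor on both arrays, and their sum, carried by the hormone genes Gh and Prl, was 3595 on the array labelled control KD and 65.8 on the array labelled TET2 KD. Cga, which encodes a hormone subunit, was higher instead on the array labelled TET2 KD, at 2.80 against 1.29. Its mean was under the floor, and measured against the floor it was at least 1.19-fold higher. The hormone subunit genes Fshb, Lhb and Tshb were lower on that array. Fshb read 1.21 there against 5.31 and Lhb 1.57 against 2.98, while Tshb was under the floor on both. The part of these cell types in the differences below was not tested. In bulk RNA, fewer cells of a type and less RNA per cell cannot be told apart.

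Nts was the precursor that differed between the arrays, and the other 9 genes did not pass 2-fold. Nts encodes neurotensin and neuromedin N, peptides of the hypothalamus and of the endocrine N cells of the gut. Its probe set, 1422860_PM_at, read 4.34 on the array labelled control KD and 7.83 on the array labelled TET2 KD. Both readings were above the floor, by 1.78 and 5.28. The difference was 3.50, an 11.3-fold higher signal on the array labelled TET2 KD. Of 11174 genes with a mean at or above the floor, 2 had a larger positive difference, the Y-linked Eif2s3y and the chromatin protein Hmgb3. Eif2s3y was under the floor on the array labelled control KD, at 0.89, and read 6.14 on the array labelled TET2 KD. Among the 10936 genes at or above the floor on each array, Nts ranked 2, after Hmgb3. The annotation gives Nts 1 probe set, so no second reading of the transcript was at hand.

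**Figure D1:**
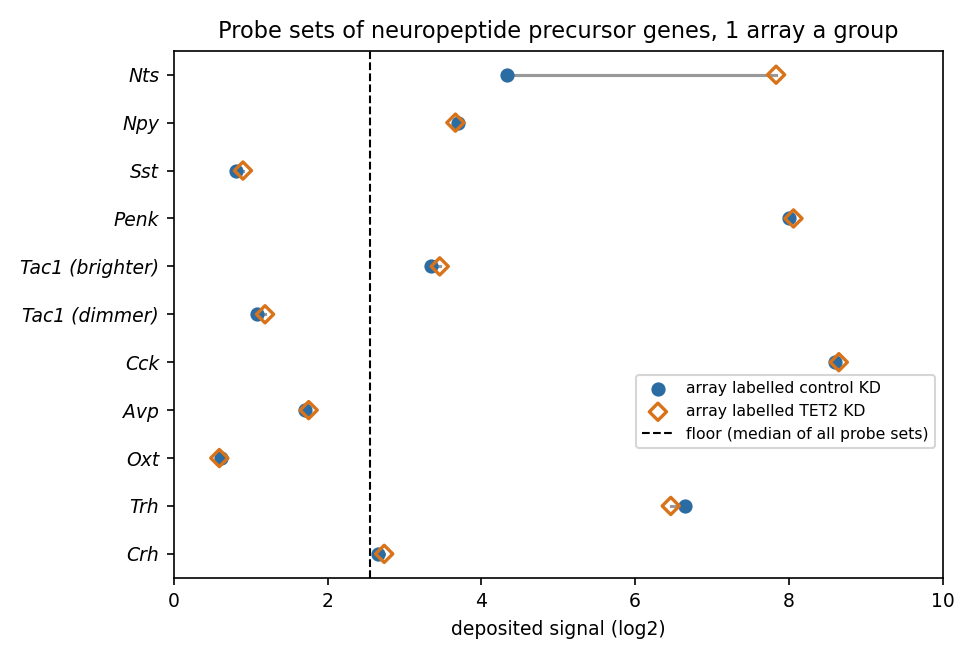
Deposited log2 signal (horizontal axis) of the 11 probe sets of the 10 neuropeptide precursor genes, with filled circles for the array labelled control KD, open diamonds for the array labelled TET2 KD and a dashed line at the floor of 2.55; there is 1 array a group and so no error bar. Nts moves from 4.34 to 7.83, while the symbols of the other 10 probe sets overlap or nearly do.

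Promoter sequence is shown for Nts, the precursor that differed, and for Cck and Trh, which were well above the floor on both arrays without such a difference, because the hairpin is directed at an enzyme that acts on methylated CpG. The sequences are the 250 bases before the gene start in RefSeq, build GRCm38.p6, found for 8 of the 10 genes and not for Penk and Crh. They run 5′ to 3′ on the strand of the gene, with every CG in capitals.
Nts, chr10:102490419-102490668, minus strand: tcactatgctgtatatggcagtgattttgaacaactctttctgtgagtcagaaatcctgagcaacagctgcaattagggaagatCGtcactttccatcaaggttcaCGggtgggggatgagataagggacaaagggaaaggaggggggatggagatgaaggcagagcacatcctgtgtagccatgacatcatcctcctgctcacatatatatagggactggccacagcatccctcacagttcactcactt
Cck, chr9:121495695-121495944, minus strand: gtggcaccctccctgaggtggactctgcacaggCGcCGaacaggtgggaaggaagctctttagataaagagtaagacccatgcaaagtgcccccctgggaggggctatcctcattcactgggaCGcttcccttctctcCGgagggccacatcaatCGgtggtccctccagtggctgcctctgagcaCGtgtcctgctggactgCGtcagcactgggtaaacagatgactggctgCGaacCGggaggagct
Trh, chr6:92244651-92244900, minus strand: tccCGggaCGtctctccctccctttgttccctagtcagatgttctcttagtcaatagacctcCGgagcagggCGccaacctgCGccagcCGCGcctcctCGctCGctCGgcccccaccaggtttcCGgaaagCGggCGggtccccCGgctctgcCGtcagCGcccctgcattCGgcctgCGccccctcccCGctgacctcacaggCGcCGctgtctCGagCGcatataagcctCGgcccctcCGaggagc

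The Nts window held 2 CG, the Cck window 9 and the Trh window 25. Over the 7 other precursors with a sequence the number ran from 4 to 25, and 29.0% of all 32851 promoter windows held 2 or fewer. The AP-1 motif TGAGTCA, searched on both strands, was found once in the Nts window, with its first base 207 bases before the start, and in none of the other 7 windows. It was in 4.46% of all windows. The cyclic AMP response element TGACGTCA, which itself holds a CG, was found once in the Sst window, starting 48 bases before the start, and in none of the other 7. It was in 1.55% of all windows. These counts describe sequence alone and exact matches only, as near matches to either motif were not searched. Neither methylation nor binding was measured.

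Cck, Penk and Trh read well above the floor on both arrays with small differences. Cck, the precursor of cholecystokinin, a peptide of gut and cortical neurons, read 8.60 on the array labelled control KD and 8.65 on the array labelled TET2 KD, and so differed by 0.05. Penk, the precursor of the enkephalin opioids, read 7.997 and 8.059, a difference of 0.06. Trh, the precursor of thyrotropin-releasing hormone, read 6.65 and 6.46. Its difference of -0.18 was the largest in size among the 10 probe sets other than that of Nts, and left 88.0% of the control signal.

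Npy, Tac1 and Crh lay closer to the floor and also differed little. Npy, the precursor of the appetite-stimulating neuropeptide Y, read 3.70 on the array labelled control KD and 3.66 on the array labelled TET2 KD, and so differed by -0.03. The brighter probe set of Tac1, the precursor of substance P and neurokinin A, read 3.34 and 3.46, a difference of 0.11. Its dimmer probe set read 1.08 and 1.19, both under the floor, with a difference of 0.10. The 2 Tac1 probe sets thus gave like differences but fell on opposite sides of the floor. Crh, the precursor of corticotropin-releasing hormone, read 2.65 and 2.74, at most 0.18 above the floor.

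Sst, Avp and Oxt were under the floor on both arrays and entered no count of genes called at 2-fold. Sst, the precursor of somatostatin, which inhibits hormone release, read 0.81 on the array labelled control KD and 0.90 on the array labelled TET2 KD. Avp, the precursor of the antidiuretic hormone vasopressin, read 1.70 and 1.75. Oxt, the precursor of oxytocin and the neighbour of Avp in the genome, read 0.61 and 0.59. Its difference of -0.02 took the other sign under rescaling of the arrays, at 0.05 after quantile normalization. Both Oxt readings equal, to all 9 decimals, those of a probe set named BC048671. Of all probe sets, 4.19% share both values with another, and how such equal values arose is not known here.

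Of the 7 precursors with a mean at or above the floor, 1 (Nts) was higher by 2-fold or more and 0 were lower. Of all 11174 genes that reached the floor, 1.17% were higher and 1.41% lower, 2.59% in either direction. All 7 also reached the floor on each array, as did 10936 of the 11174 genes. Without the filter on the mean this is 7 of 10 precursors, beside 64% of all 17097 named genes. With 7 genes, 1 of them known beforehand to differ, these shares support no statement on the group. The median difference of the 7 was 0.06, beside -0.01 for all genes and a robust SD of all differences of 0.146. The 10 probe sets other than that of Nts ran from -0.18 to 0.11, 7 of them above 0 and 3 below. Differences no larger than 0.18 in size were seen in 72.5% of all genes at or above the floor.

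**Figure D2:**
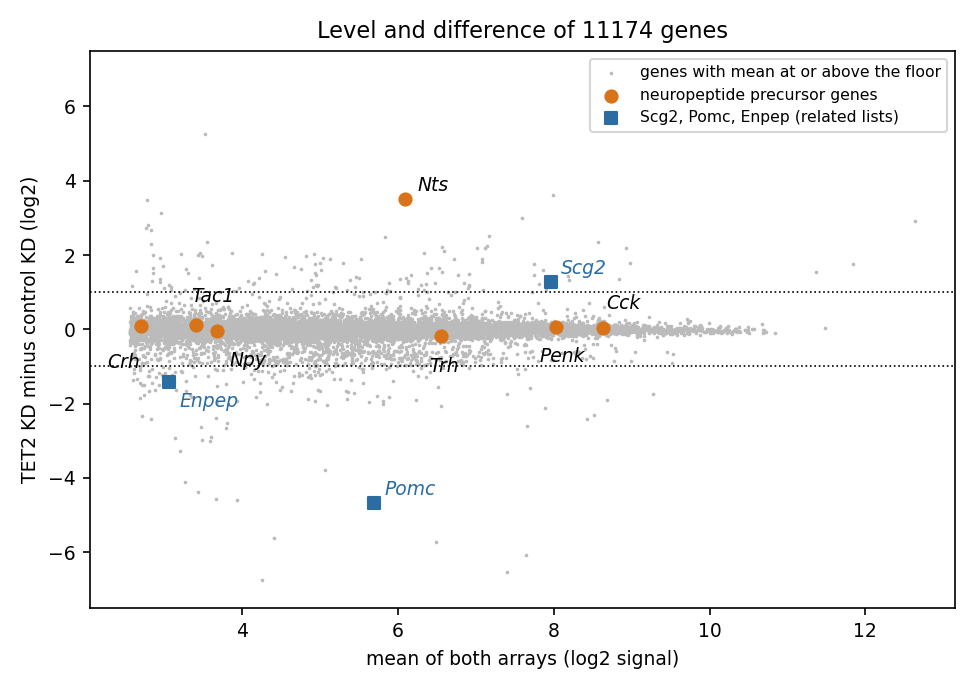
Difference, array labelled TET2 KD minus array labelled control KD (vertical axis, log2 scale), against the mean of both arrays (horizontal axis, log2 signal) for the 11174 genes with a mean at or above the floor (grey points), the 7 neuropeptide precursors among them (orange circles) and 3 genes of related lists (blue squares); dotted lines mark 2-fold. Nts stands at 3.50 and the other 6 precursors lie inside the grey band around 0.

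The genes nearest to Nts in the plane of both readings were Fam83d, Nuak1, Cntfr, Tspan9 and Acsm3. Likeness was the straight-line distance over the 2 arrays on the log2 scale, which ran from 0.789 for Fam83d, a spindle protein, to 1.38 for Acsm3. Fam83d read 4.59 on the array labelled control KD and 7.09 on the array labelled TET2 KD. Cntfr, a receptor subunit for ciliary neurotrophic factor, read 5.46 and 7.67, and its 2 probe sets averaged a difference of 1.19.

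Receptors for the peptides of these precursors gave 0 genes past 2-fold among the 11 that reached the floor, of 28 measured. Beside this count and those of the lists below stands the 2.59% of all genes that reached the floor. Their median difference was 0.08. Ntsr2, a neurotensin receptor of astrocytes, read 7.83 on the array labelled control KD and 7.91 on the array labelled TET2 KD, and Ntsr1 read 3.20 and 3.33. Sort1, sortilin, a sorting receptor that binds neurotensin, differed by 0.84 in its brightest probe set, but by 0.07 and -0.26 in the other two. Crhr1, the main receptor for corticotropin-releasing hormone, read 4.84 and 4.76. The enkephalin receptor Oprd1 lay on either side of the floor, at 2.43 and 2.77, and is among the 11. The remaining 17 receptors were under the floor on both arrays.

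Enzymes that process the precursors gave few large differences as well. Of 11 processing genes that reached the floor, 0 passed 2-fold, and the median was 0.0045. Cpe, carboxypeptidase E, read 6.44 on the array labelled control KD and 6.45 on the array labelled TET2 KD, and Ctsl, cathepsin L, 7.85 and 7.84. Qpct, the cyclase that gives neurotensin its pyroglutamate end, read 4.45 and 3.78, a difference of -0.67. Pcsk1, a convertase of neuroendocrine cells, was under the floor at 1.26 and 1.22.

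Scg2 was the dense-core granule gene past 2-fold, among 8 at or above the floor. Scg2 encodes secretogranin II, a granin that is itself cut into peptides, and read 7.32 on the array labelled control KD and 8.59 on the array labelled TET2 KD, a 2.41-fold higher signal by its 1 probe set. The list's median was 0.07. Rab27b, a GTPase of granule docking, differed by 0.21 in its brightest probe set, while another differed by -2.07 and the average over all 3 was -0.66. Chga, chromogranin A, differed by -0.12, Cadps, a priming factor of granule release, by -0.13, and Rab3a, a vesicle GTPase, by -0.08. Chgb and Scg3, related granins, were under the floor on both arrays.

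Among enzymes that break peptides down and the binding protein Crhbp, 1 of 8 at or above the floor was lower by 2-fold or more and none higher. It was Enpep, an aminopeptidase that acts on angiotensin, at 3.77 on the array labelled control KD and 2.35, under the floor, on the array labelled TET2 KD. Its signal was at least 2.32-fold lower, measured against the floor. The list's median was -0.23, beside -0.01 for all genes, and -0.13 with the floor at the 25th or the 75th percentile or with probe sets for several transcripts left out. Ece1, endothelin-converting enzyme, differed by -0.97 in its brighter probe set and by 0.06 in its dimmer one, which was under the floor. The peptidases Nln, neurolysin, which cuts neurotensin, Prep and Thop1 differed by -0.60, 0.0064 and -0.13. Crhbp, which binds corticotropin-releasing hormone, read 5.02 and 4.99.

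Other neuropeptide precursors gave 1 gene past 2-fold among 11 at or above the floor, of 32 measured, with a median of 0.01. That gene was Pomc, the precursor of corticotropin and melanocortins and also a pituitary marker, at 8.04 on the array labelled control KD and 3.35 on the array labelled TET2 KD. It thus differed in the direction opposite to Nts. Pnoc, the nociceptin precursor, read 4.06 and 4.36, and Nmb, neuromedin B, 4.24 and 4.25. The 21 others, among them Vip, Gal, Hcrt and Cartpt, were under the floor on both arrays.

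Transcription factors of peptide neurons gave 0 of 9 past 2-fold, with a median of -0.04. The forebrain factors Dlx1 and Dlx2 read 5.30 and 5.26, and 4.31 and 4.21, on the arrays labelled control KD and TET2 KD. Arnt2, a partner of Sim1 in the hypothalamus, differed by -0.64, and Sim1 and Otp were under the floor on both arrays. Over all 6 related lists, 1 of 58 genes that reached the floor was higher (1.72%) and 2 were lower (3.45%), beside the 1.17% and 1.41% of all genes.

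**Figure D3:**
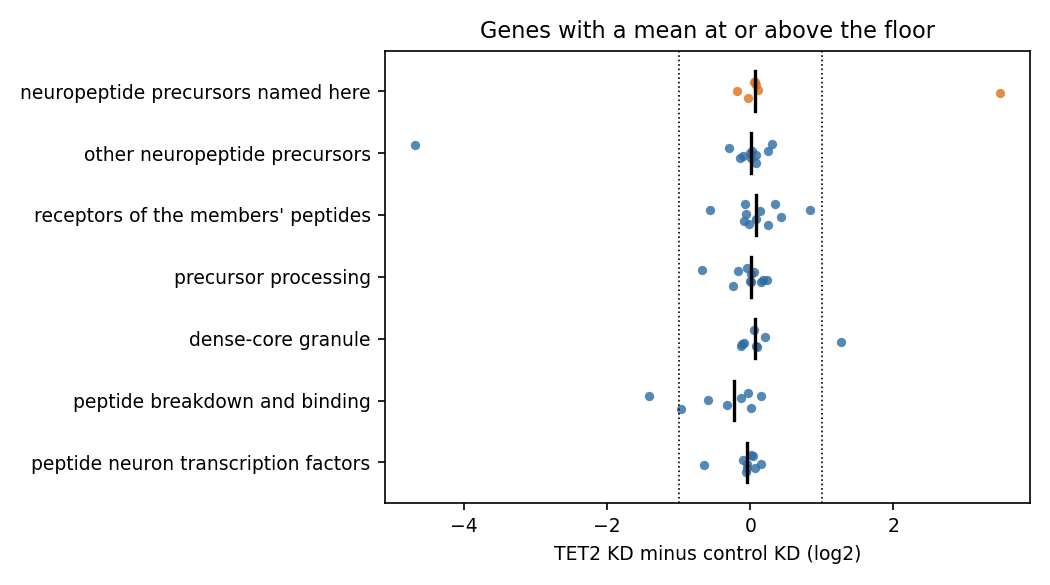
Difference, array labelled TET2 KD minus array labelled control KD (horizontal axis, log2 scale), of each gene with a mean at or above the floor, by list (vertical axis, with points spread for sight); black bars are medians and dotted lines mark 2-fold. The points past 2-fold are Nts at 3.50, Scg2 at 1.27, Enpep at -1.41 and Pomc at -4.69, and the medians run from -0.23 to 0.08.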

How the data were processed

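The authors deposited 1 log2 value a probe set and array. The submitters' processing notes name Affymetrix Expression Console. Version, summary method and normalization were not given in the sources used here, and the log base was inferred from the range of the values. Per the labels' protocols, 2 µg of total RNA per sample was copied from an oligo(dT) primer into biotin-labelled cRNA. Of 45141 probe sets, 104 are controls, and 28898 of the others carry 1 gene symbol. Scanner files were not analysed here.

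A gene was represented by its probe set with the highest mean. Members and lists were chosen with earlier results of these data known. Named genes were every member, Tet2, members of the related lists past 2-fold or among the 3 brightest of a list, and the 5 genes nearest to Nts; others were named after their values were seen. Marker sums add linear signals over a list. Alternatives covered scaling, floor, probe set rule and threshold. Computation used Python 3.11.15, numpy 2.4.6 and pandas 2.3.3.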

Additional observations from a re-analysis of the deposited data

How the results depend on the processing

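The count of 1 precursor higher and 0 lower held under all alternatives run. Nts has 1 probe set, so the probe set rules could not change its difference. Rescaling of the arrays moved it from 3.50 to at most 3.51. With the floor at the 75th percentile, 4 precursors entered by their mean, but 3 member probe sets were at or above it on both arrays. Nts entered there through its mean and was under that floor on the array labelled control KD. Of the 6835 genes that then entered, 80 were higher and 60 lower. From the related lists 1 gene was lower, and the median of other precursors, then Pomc alone, was -4.69. At 1.5-fold, 199 of all 11174 genes were higher and 606 lower. Of the 58 genes of the related lists at or above the floor, 2 were then higher and 6 lower. In the mean of probe sets 87 of 10405 genes were higher, Sort1 differed by 0.22 and Ece1 by -0.46. Leaving out probe sets whose names mark several transcripts, and with them Cck and Pomc, left 1 gene of the related lists lower and Ece1 at 0.06. Values moved by less than 0.146, and counts by no more than 1.5 times, in the other 124 of 138 comparisons with an alternative. Part of these were fixed in advance. Centring shifts all differences alike, and probe set rules cannot change the difference of a gene with 1 probe set. Among the precursors only Tac1 has 2, so this tally is no measure of stability. No paired analysis was possible because each group has 1 array. Readings under the floor cannot be told from background.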

Other observations

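The reading of Nts on the array labelled control KD equals, to all 9 decimals, that of Cebpg, a transcription factor, which read 4.34 there and 4.49 on the array labelled TET2 KD. On that control array 12.4% of probe sets share their value with at least 1 other.

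Among processing genes, Cpd, carboxypeptidase D, has 7 probe sets, of which 1 differed by 1.93 and the other 6 by -0.23 to 0.20. Trhde, the enzyme that breaks down thyrotropin-releasing hormone, read 2.09 on the array labelled control KD and 1.20 on the array labelled TET2 KD, both under the floor.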
